A study of Mus musculus with 2 samples.

Results

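The regulatory T cell genes described here are 8 mouse genes, *Foxp3*, *Ikzf2*, *Il2ra*, *Icos*, *Tnfrsf4*, *Tnfrsf18*, *Itgb8* and *Cd4*, taken by name from the 27031 genes counted in single cells of mouse tumors. Regulatory T cells are CD4 T cells that restrain other immune cells, and the transcription factor FOXP3 is needed to form and keep them. They draw IL-2 from their surroundings through a receptor that includes IL2RA, activate TGF-beta at their surface, and carry co-stimulatory receptors that rise further inside tumors. Most of these genes do not belong to regulatory T cells alone. Activated T cells of other kinds make IL2RA, ICOS, OX40 and GITR, and helper T cells in general make CD4.

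The cells came from female C57BL/6 mice, 6 to 8 weeks old, with subcutaneous tumors grown from MC38 cells, a mouse colorectal cancer line. From implantation on, mice were given either vehicle (control group) or 5 mg/kg of telmisartan, an angiotensin receptor blocker, by daily gavage, and the tumors were taken on day 13. Live CD45-positive cells of 5 mice were pooled for each group, marked with Sample Tag 1 (control) or Sample Tag 2 (telmisartan), and captured together on the BD Rhapsody system. With 1 pool per group, no spread between mice can be measured, so the groups are compared by values without a test, and every interval is a 95% interval that covers counting error only.

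The kept cells numbered 4536 in the control group, with 41541600 UMIs (counted RNA molecules), and 4433 in the telmisartan-treated group, with 30870149 UMIs. The median cell held 8678.5 UMIs in the control group and 6344 in the telmisartan-treated group, so the treated cells were shallower. T cells were all cells with at least 2 UMIs over *Cd3d*, *Cd3e* and *Cd3g* together: 69 control cells (1.52%, median 4682 UMIs) and 105 treated cells (2.37%, median 3712 UMIs). Macrophages were the cells of macrophage-like clusters below that limit, 4039 control cells (median 8970 UMIs) and 3989 treated cells (median 6453 UMIs). Dendritic cells were those of 3 dendritic-like clusters below the same limit, 368 control cells (median 7620 UMIs) and 297 treated cells (median 6360 UMIs). Levels are UMIs per 1000000 UMIs of the same cells (CPM) and are compared within a gene only.

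The T cells were checked against marker genes. All 12 of 12 T cell markers were detected in them, at a summed 4275 CPM in the control group and 6475 CPM in the telmisartan-treated group, with *Trac* the most abundant, against 15.4 CPM in macrophages. Of these markers 3 are the *Cd3* genes of the gate, and the other 9 summed to 3143 CPM in control and 4685 CPM in treated T cells, against 13.6 CPM in macrophages. All 11 of 11 macrophage markers were detected as well, at 10987 CPM in control T cells and 5989 CPM in treated T cells, with *Lyz2* the most abundant. Of the T cells, 56 control and 91 treated cells fell in the T-like cluster, 13 and 12 fell in macrophage-like clusters, and 0 and 2 fell in dendritic-like clusters. The T cells of the control group thus carried more macrophage RNA, and its part in the differences between groups below was not tested. Dendritic markers were detected for 8 of 10 genes, at 49.4 CPM in control and 382 CPM in treated T cells, with *Ccr7* the most abundant in the control group, *Ccl22* in the treated group, and *Xcr1* and *Cd209a* at 0. These markers stood higher in treated T cells, *Ccr7* among them is also made by T cells, and their part was not tested either. Other lists were low: neutrophil markers (6 of 6) at 37.0 and 12.2 CPM, B cell markers (1 of 4, *Cd79b*) at 6.17 and 10.2 CPM, and NK cell markers (3 of 4, *Ncr1* at 0) at 41.2 and 59.0 CPM. Markers of gamma-delta T cells (2 of 2) stood at 0 and 4.07 CPM, mast cell markers at 0 of 3, and markers of CD45-negative cells (4 of 5, *Krt8* at 0) at 22.6 and 32.5 CPM. The list for type 2 innate lymphoid cells (3 of 3) stood at 251 and 358 CPM, led by *Rora*, and its gene *Gata3* is also made by T cells.

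*Foxp3*, which encodes the transcription factor that defines the lineage, was found in T cells and hardly outside them. A *Foxp3* UMI was found in 18 of 69 control T cells (26.1%, exact interval 16.3% to 38.1%) and in 16 of 105 treated T cells (15.2%, 8.97% to 23.6%). In macrophages, which should lack the gene and whose cells were deeper, the shares were 0.248% and 0.326%. After every cell was thinned to 1000 UMIs, which left out 3 and 3 shallower T cells, the T cell shares were 12.1% and 8.82%. The same thinning, which left out 45 and 72 macrophages, gave 0 control macrophages, which allows up to 0.0751%, and 0.0511% of treated macrophages. No dendritic cell of 665 held a *Foxp3* UMI, which allows a share of up to 0.451%. The treated group thus had the lower share of *Foxp3*-positive T cells at both depths, while the intervals of its shares and those of the control group overlapped.

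The number of *Foxp3*-positive T cells among all kept cells was close in both groups, at 0.397% (0.235% to 0.626%) of control and 0.361% (0.206% to 0.585%) of treated cells. The share among T cells was therefore lower over a larger number of T cells. A limit of at least 2 *Foxp3* UMIs gave 16 control cells (23.2% of T cells) and 14 treated cells (13.3%). At least 3 UMIs gave 10 and 10 cells, and at least 5 UMIs gave 7 and 7 cells. At the edge of the T cell gate, *Foxp3* was found in 2 of 12 control cells (16.7%) and 2 of 17 treated cells (11.8%) with exactly 2 *Cd3* UMIs. Just outside it, with 1 *Cd3* UMI, it was found in 2 of 62 control cells (3.23%) and 1 of 79 treated cells (1.27%). In all, 25 cells outside the gate held 26 *Foxp3* UMIs, never more than 2 in a cell, against 34 cells with 166 UMIs inside it.

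The summed level of *Foxp3* in T cells was 189 CPM (153 to 232) from 92 UMIs in the control group and 151 CPM (118 to 189) from 74 UMIs in the telmisartan-treated group, a log2 ratio of −0.33 (−0.79 to 0.13). This interval includes 0, so a difference in the summed level was not detectable at this depth. Without the control cell with the most *Foxp3* UMIs (24) the log2 ratio was 0.07 (−0.42 to 0.57), and without the highest cell of each group (24 and 12 UMIs) it was −0.15 (−0.67 to 0.37). Without the highest treated cell alone it was −0.55 (−1.04 to −0.07), so whether the interval included 0 depended on single cells. The ratio was −0.31 with TMM factors, −0.92 for mean UMIs per cell with no scaling, and −1.13 for the mean of UMIs per 10000 of each cell. Per 100 *Cd3* UMIs, *Foxp3* had 16.7 UMIs in control and 8.41 in treated T cells, a log2 ratio of −0.99 (−1.45 to −0.53). Of these 5 scalings all but the mean per 10000 of each cell differ only by a constant shared by all genes, so they are not separate checks of direction. Relative to the median of all genes, *Foxp3* stood at −0.31 in each of those 4 and at −1.12 per 10000 of each cell. Among gated cells of the T-like cluster alone, where macrophage markers stood at 5036 and 3007 CPM, it was 312 CPM in control and 189 CPM in treated cells, a log2 ratio of −0.73 (−1.20 to −0.26). It was −0.33 (−0.83 to 0.18) there without the control cell with 24 *Foxp3* UMIs, and −0.55 (−1.08 to −0.02) without the highest cell of each group. Without the highest treated cell alone it was −0.95 (−1.44 to −0.46).

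The T cells were split by the genes of the CD8 and CD4 coreceptors. A *Cd8a* or *Cd8b1* UMI was present in 37 control and 59 treated T cells, and *Foxp3* was found in 0 and 1 of them. Among T cells with no *Cd8* UMI, *Foxp3* was found in 18 of 32 control cells (56.3%) and 15 of 46 treated cells (32.6%), and in 25.8% and 17.8% after thinning. Its level there was 406 CPM in the control and 265 CPM in the treated group, a log2 ratio of −0.62 (−1.08 to −0.16). Without the control cell with 24 *Foxp3* UMIs it was −0.25 (−0.74 to 0.25), and without the highest cell of each group −0.45 (−0.97 to 0.07), so a difference in level beyond counting error depended on that cell. Without the highest treated cell alone it was −0.82 (−1.31 to −0.34). By these values the share was lower in the treated group without the *Cd8*-positive cells as well. It rests on 18 and 15 positive cells, and no difference in share beyond counting error is read from it. Among the 22 control and 31 treated cells with a *Cd4* UMI and no *Cd8* UMI, the shares were 54.5% and 35.5%, but 22.7% and 22.6% after thinning. The 10 control and 15 treated cells with neither coreceptor held *Foxp3* in 60% and 26.7%, and their depths differed, with medians of 2950 and 7693 UMIs. The difference in share within *Cd4*-positive cells was thus not detectable at equal depth.

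**Figure D1:**
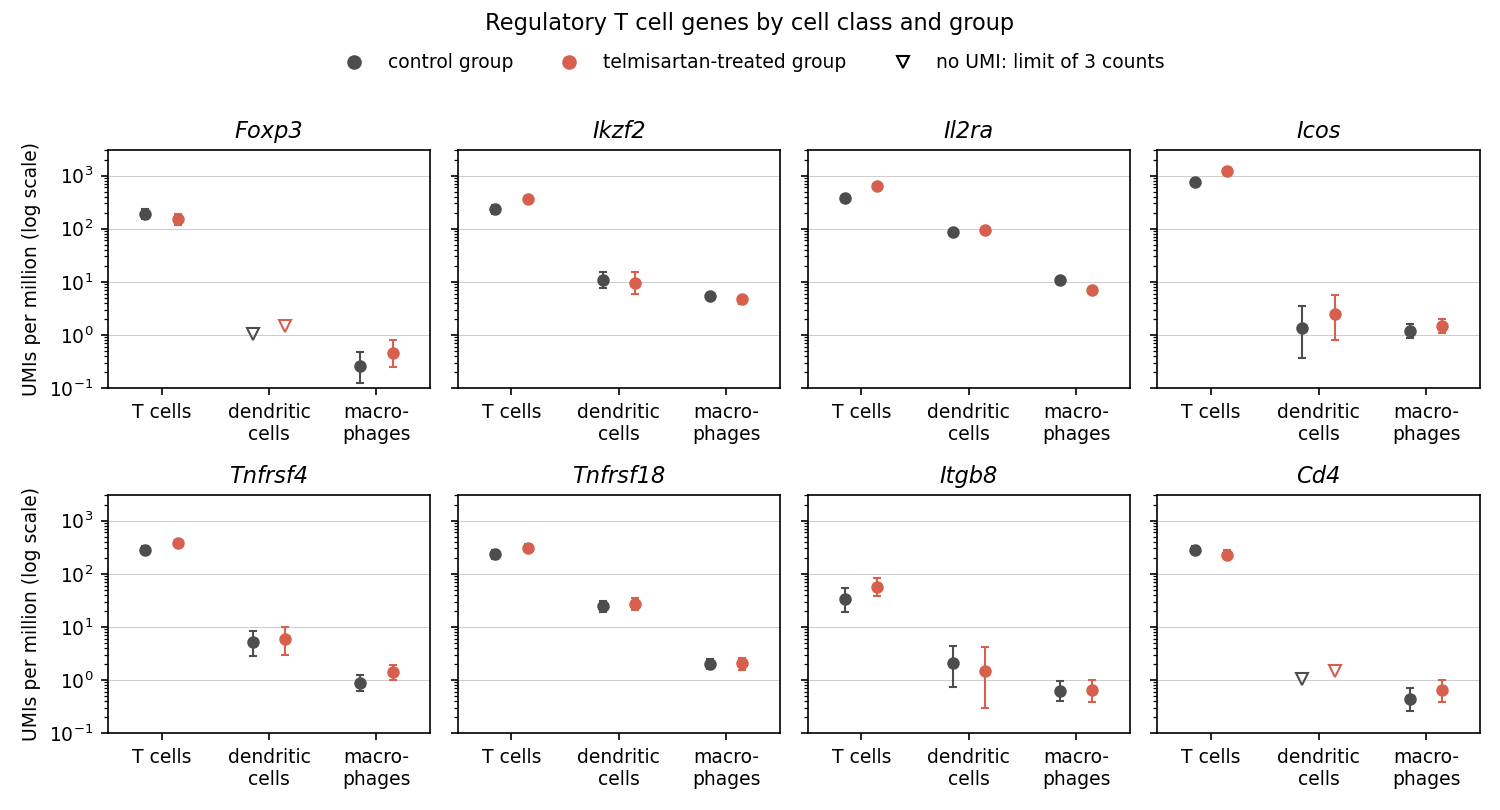
Levels of the 8 genes in CPM (log scale) in T cells, dendritic cells and macrophages of the control and telmisartan-treated groups, with exact Poisson intervals as bars and, for no UMI, the limit of 3 UMIs as an open triangle. T cells hold the highest level of each gene, and *Il2ra* in dendritic cells, at 87.3 and 94.5 CPM, stands between T cells and macrophages.

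*Ikzf2* encodes HELIOS, a transcription factor found in many thymus-derived regulatory T cells. T cells of the control group held it at 231 CPM (112 UMIs) and those of the treated group at 358 CPM (176 UMIs), a log2 ratio of 0.64 (0.29 to 0.99). Its share of cells ran the other way, from 34.8% in control to 24.8% in treated T cells (18.2% and 14.7% after thinning), against 3.59% and 2.63% of macrophages (0.576% and 0.434%), so no order is read from it. The log2 ratio was −0.17 for the mean per 10000 of each cell and −0.03 relative to *Cd3* UMIs, so its direction depended on the scaling. Relative to the median of all genes it was 0.65 by CPM and −0.16 per 10000 of each cell.

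*Il2ra* encodes the alpha chain that gives the IL-2 receptor its high affinity. Its level was 370 CPM (318 to 429) in control T cells and 629 CPM (560.5 to 702.7) in treated T cells, a log2 ratio of 0.76 (0.49 to 1.04). The shares of cells were 47.8% and 59.0%, but 30.3% and 28.4% after thinning, against 4.04% and 2.83% of macrophages (0.801% and 0.664%). Relative to *Cd3* UMIs, of which *Il2ra* had 32.7 and 35.1 per 100, the log2 ratio was 0.10, and for the mean per 10000 of each cell it was −0.09. The higher CPM of the treated group thus came without a larger share of cells at equal depth.

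*Icos*, *Tnfrsf4* and *Tnfrsf18* encode the co-stimulatory receptors ICOS, OX40 and GITR. *Icos* stood at 766 CPM (372 UMIs) in control and 1202 CPM (591 UMIs) in treated T cells, a log2 ratio of 0.65 (0.46 to 0.84) that was positive under every scaling run except relative to *Cd3* UMIs (−0.01). It was found in 75.4% and 77.1% of T cells (47.0% and 49.0% after thinning), against 0.792% and 0.852% of macrophages (0.1002% and 0.1021% after thinning). *Tnfrsf4* stood at 278 CPM in control and 378 CPM in treated T cells, a log2 ratio of 0.45 (0.12 to 0.78). The ratio was 0.31 (−0.02 to 0.65) without the highest treated cell (20 UMIs), and 0.48 (0.13 to 0.83) without the highest cell of each group. *Tnfrsf4* was found in 43.5% and 43.8% of T cells (22.7% and 24.5% after thinning), against 0.619% and 0.928% of macrophages (0.125% and 0.2298%). *Tnfrsf18* stood at 235 and 307 CPM, a log2 ratio of 0.39 (0.03 to 0.75), in 44.9% and 52.4% of T cells (24.2% and 21.6% after thinning), against 1.71% and 1.25% of macrophages (0.125% and 0.2298%). Its ratio was 0.30 (−0.07 to 0.67) without the highest treated cell (12 UMIs), and 0.49 (0.11 to 0.88) without the highest cell of each group. Both TNF receptor genes were lower in the treated group with no scaling (−0.14 and −0.20), per 10000 of each cell (−0.02 and −0.13) and relative to *Cd3* (−0.22 and −0.27), so neither had a direction that held across scalings. Relative to the median of all genes they were lower per 10000 of each cell only (−0.01 and −0.12).

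*Itgb8* encodes the integrin subunit that pairs with the alpha V chain to activate TGF-beta. It was the scarcest in UMIs, with 16 in control (32.9 CPM, 18.8 to 53.5) and 28 in treated T cells (57.0 CPM, 37.9 to 82.3), a log2 ratio of 0.79 (−0.15 to 1.78). It was found in 8 T cells of each group, 11.6% and 7.62% (3.03% and 3.92% after thinning), against 0.396% and 0.401% of macrophages (0.0751% and 0.0255%). Its difference was within counting error, and the ratio was −0.04 for the mean per 10000 of each cell. By CPM the ratio depended on single cells. It was 1.18 (0.16 to 2.29) without the highest control cell (4 UMIs) and 0.41 (−0.60 to 1.44) without the highest treated cell (7 UMIs). Without both it was 0.80 (−0.29 to 1.96).

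*Cd4*, the coreceptor of helper and regulatory T cells, stood at 278 CPM (135 UMIs) in control and 230 CPM (113 UMIs) in treated T cells, a log2 ratio of −0.27 (−0.65 to 0.10). It was found in 33.3% and 29.5% of T cells (16.7% and 12.7% after thinning), against 0.396% and 0.426% of macrophages (0.0501% and 0.102%). Without the control cell with the most *Cd4* UMIs (27) the log2 ratio by CPM was 0.02 (−0.37 to 0.42), and without the highest cell of each group (27 and 21 UMIs) it was −0.25 (−0.67 to 0.16). Without the highest treated cell alone it was −0.55 (−0.95 to −0.15). Per 100 *Cd3* UMIs, 24.5 *Cd4* UMIs in control T cells stood against 12.8 in treated T cells (−0.93). Relative to the median of all genes *Cd4* was −0.26 by CPM and −0.69 per 10000 of each cell. *Foxp3* and *Cd4* were the members with the treated group lower by CPM, with intervals that include 0, and the other 6 were higher by CPM.

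Read against all genes, 0 of 8 members were at least 2 times higher in treated than in control T cells, where 4.81% of 6573 genes were, and 0 of 8 were at least 2 times lower, where 6.18% were. The median log2 ratio was 0.54 over the members and −0.02 over all genes. With no scaling the median of all genes was −0.61, and relative to *Cd3* UMIs it was −0.68, so ratios on those scales are read against these shifts. The genes of the *Cd3* complex were themselves higher by CPM in treated T cells, *Cd3d* at 0.76, *Cd3e* at 0.42 and *Cd3g* at 0.85 (log2), of which *Cd3e* fell below 0 with no scaling (−0.17), per 10000 of each cell (−0.05) and relative to the *Cd3* sum (−0.24). The coreceptor gene *Cd8a* had a log2 ratio of 1.18 (214 and 484 CPM). Among gated cells of the T-like cluster the median log2 ratio of the members was 0.16, against −0.01 over all genes. *Il2ra* (0.30, 0.02 to 0.57) and *Icos* (0.29, 0.10 to 0.49) were higher there by CPM. Without the highest treated cell they were 0.17 (−0.11 to 0.45) and 0.16 (−0.04 to 0.36), with intervals that include 0. Without the highest cell of each group they were 0.36 (0.07 to 0.66) and 0.28 (0.07 to 0.49). *Ikzf2* (0.23, −0.12 to 0.60), *Tnfrsf4* (0.09, −0.24 to 0.43), *Tnfrsf18* (−0.04, −0.40 to 0.33) and *Itgb8* (0.39, −0.55 to 1.37) had intervals that include 0. Without the highest control cell *Ikzf2* was 0.48 (0.11 to 0.87). *Cd4* was lower, at 467 and 294 CPM (−0.67, −1.04 to −0.29), at −0.39 (−0.78 to 0.01) without the control cell with 27 *Cd4* UMIs, and at −0.66 (−1.08 to −0.24) without the highest cell of each group. Without the highest treated cell alone it was −0.94 (−1.34 to −0.54). The members' higher median by CPM was thus smaller without the T cells of other clusters.

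**Figure D2:**
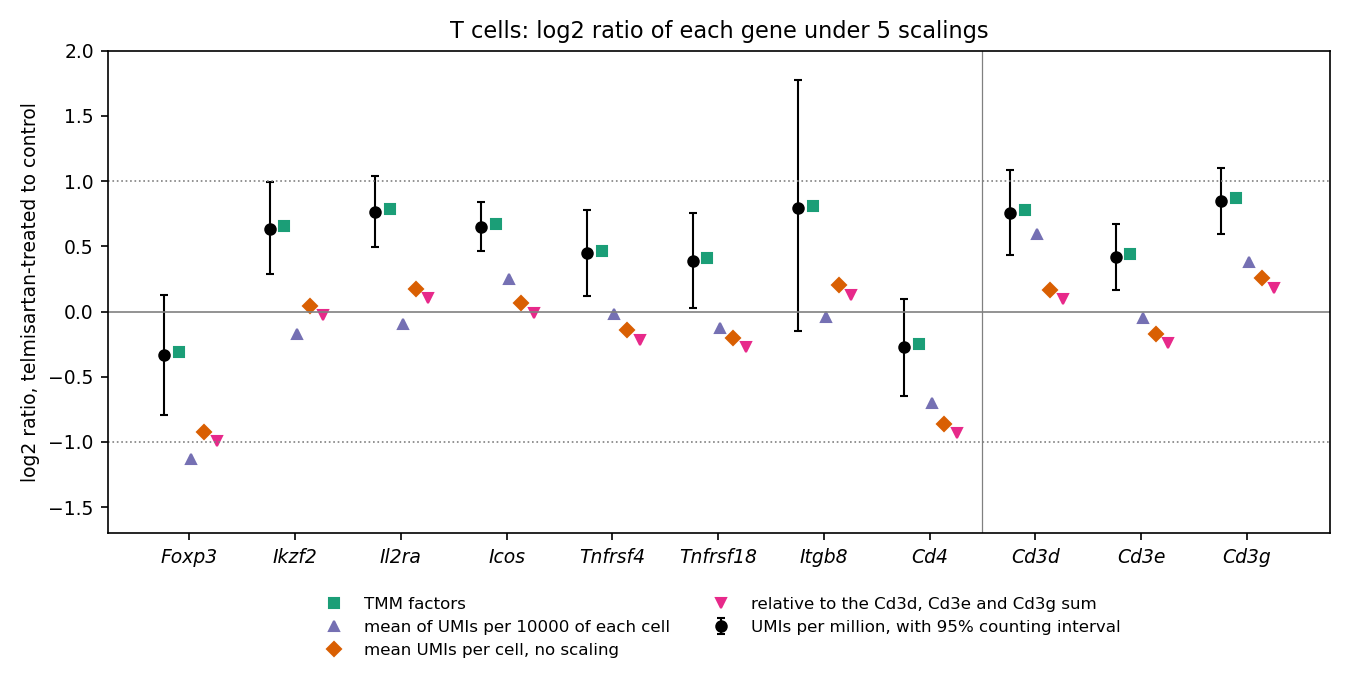
Log2 ratio, treated to control, of each gene in T cells, by CPM with exact conditional binomial intervals (black) and under 4 other scalings, with the *Cd3* genes at the right and dotted lines at 2-fold. *Foxp3* and *Cd4* lie below 0 under all 5 scalings, where 4 of the scalings differ by a constant shared by all genes. Each other member lies above 0 by CPM, and all of them except *Icos* lie below 0 per 10000 of each cell. *Icos* lies below 0 only relative to *Cd3* (−0.01), where the median of all genes is −0.68.

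Cells with and without a *Foxp3* UMI were then compared within T cells. The 34 *Foxp3*-positive cells (median 5728 UMIs) were deeper than the 140 *Foxp3*-negative cells (median 3555.5 UMIs), and their depths were not matched. *Foxp3* made the split, so it is left out of the counts. Of the 7 other members, 6 were at least 2 times higher in positive cells, where 6.09% of 6573 genes were. None of the 7 was at least 2 times lower, where 9.25% of genes were. The median log2 ratio was 2.01 over the 7 members and 0.02 over all genes. *Itgb8* stood at 156 CPM in positive and 10.7 CPM in negative cells, a log2 ratio of 3.86 (2.73 to 5.17), and was found in 14 of 34 and 2 of 140 cells. *Ikzf2* stood at 1007 and 73.7 CPM, a log2 ratio of 3.77 (3.34 to 4.22), in 28 and 22 cells. These genes were set apart from the receptors, whose ratios were smaller. *Tnfrsf4* (812 and 178 CPM) had a log2 ratio of 2.19 and *Tnfrsf18* (635 and 158 CPM) one of 2.01. *Il2ra* (1158 and 296 CPM) had a log2 ratio of 1.97, and *Icos* (1983 and 676 CPM) one of 1.55. *Cd4* alone was not higher, at 216 and 265 CPM, a log2 ratio of −0.30 (−0.77 to 0.16).

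The negative cells were mostly *Cd8*-positive, so the comparison was repeated among T cells with no *Cd8* UMI, 33 with *Foxp3* and 45 without. There 6 of the 7 other members were at least 2 times higher, where 7.51% of 4367 genes were, and 1 of 7, *Cd4*, was at least 2 times lower, where 7.1% of genes were. *Ikzf2* stood at 1012 and 140 CPM (log2 ratio 2.85) and *Itgb8* at 156 and 29.5 CPM (2.41). The receptors had smaller ratios, *Icos* 1.68, *Il2ra* 1.59, *Tnfrsf18* 1.31 and *Tnfrsf4* 1.29. Over all *Foxp3*-negative T cells *Itgb8* had only 8 UMIs, in 2 cells, so its order against the receptors is not firm. *Cd4* stood at 217 CPM in *Foxp3*-positive cells and 696 CPM in negative cells, a log2 ratio of −1.68 (−2.16 to −1.22), and of −1.51 (−1.995 to −1.04) without the cell with 27 *Cd4* UMIs. *Cd4* was detected in 23 of these 33 positive cells and in 30 of the 45 negative cells (66.7%), so the lower CPM of the positive cells came without a lower share of cells. The depth of the cells was not matched for these shares.

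Cell by cell, the members were found together. A *Foxp3*-positive T cell held a median of 6 of the 7 other members (range 1 to 7), and 11 of 34 held all 7. A *Foxp3*-negative T cell held a median of 2 (range 0 to 6), and 0 of 140 held all 7. Among negative cells with no *Cd8* UMI the median was 4. At least 5 of the others were found in 26 of 34 positive and 14 of 140 negative cells, and those 14 had no *Cd8* UMI. *Itgb8*, scarce as it was, was found beside other members: all 16 T cells with it also held *Icos* and *Tnfrsf18*, and 14 of them (87.5%) held *Foxp3*. Of the 50 T cells with *Ikzf2*, 56% held *Foxp3*. The depth of the cells was not matched for these counts.

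The UMIs of a gene per *Foxp3*-positive cell overlapped between the groups. *Foxp3* itself ran from 1 over a median of 3 to 24 UMIs per cell in the control group, and from 1 over 4 to 12 in the telmisartan-treated group. *Icos* ran from 0 over 10 to 36 and from 0 over 14.5 to 67, and *Il2ra* from 0 over 3.5 to 28 and from 0 over 4.5 to 35. *Ikzf2* ran from 0 over 5 to 19 and from 0 over 6 to 27. *Tnfrsf4* ran from 0 over 4 to 17 and from 0 over 4.5 to 20, and *Tnfrsf18* from 0 over 2.5 to 16 and from 0 over 3 to 12. *Itgb8* (highest 4 and 7) and *Cd4* (highest 7 and 4) stood lower, so the highest cell was a control cell for *Foxp3*, *Tnfrsf18* and *Cd4* and a treated cell for the others. Of the 34 cells, 31 lay in the T-like cluster and 3 in macrophage-like clusters, with 1 or 2 *Foxp3* UMIs each.

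**Figure D3:**
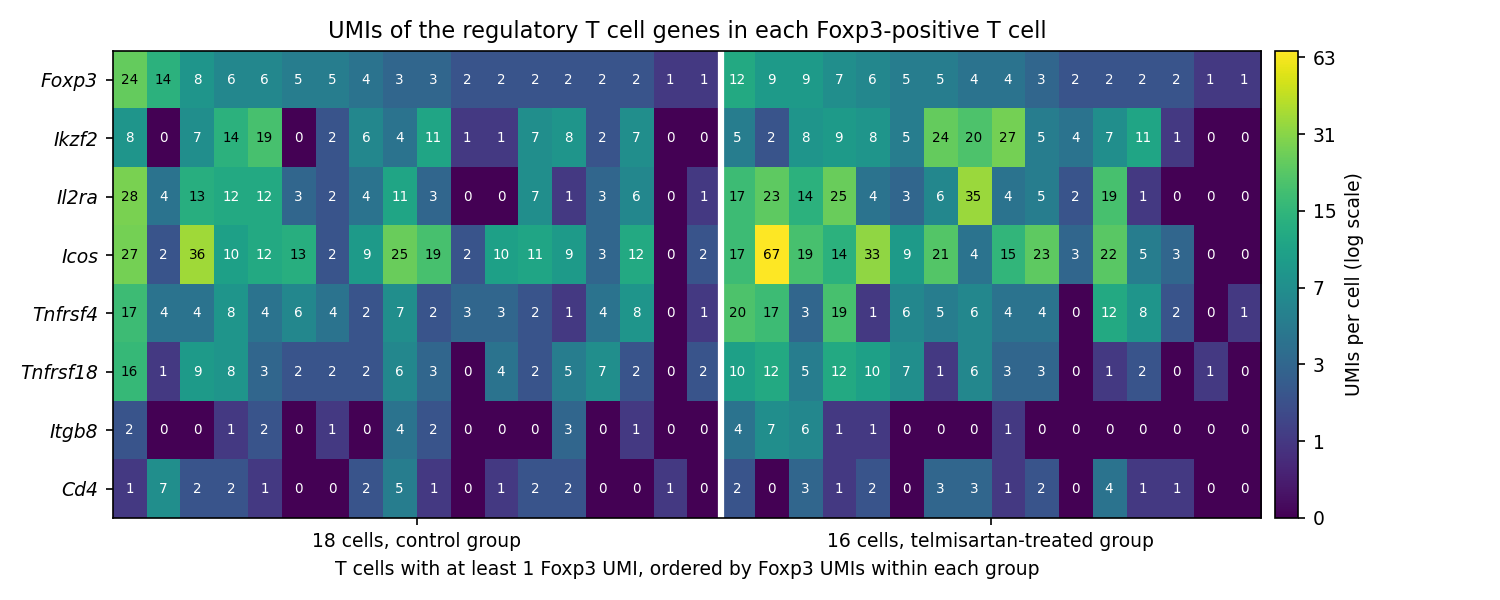
UMIs of the 8 genes (lines) in each of the 34 *Foxp3*-positive T cells (columns), 18 of the control group and 16 of the telmisartan-treated group, ordered by *Foxp3* UMIs, with the color on a log scale. *Icos*, *Tnfrsf4*, *Tnfrsf18*, *Il2ra* and *Ikzf2* are filled in 28 or more cells, *Cd4* in 23 and *Itgb8* in 14 of 34, and the ranges of the groups overlap.

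Between groups, the 16 treated *Foxp3*-positive cells were set against the 18 control ones. None of the 8 members was at least 2 times higher, where 7.45% of 2228 genes were, or at least 2 times lower, where 10.3% were. *Foxp3* stood at 708 CPM in control and 730 CPM in treated cells, a log2 ratio of 0.04 (−0.42 to 0.50), so no difference in its level beyond counting error was detectable. Cells of both groups were chosen for a *Foxp3* UMI, so this ratio leaves out differences in the share of positive cells. *Il2ra* stood at 846 and 1558 CPM (log2 ratio 0.88, 0.52 to 1.25) and *Ikzf2* at 746 and 1341 CPM (0.85, 0.46 to 1.24). *Icos* stood at 1569 and 2514 CPM (0.68) and *Tnfrsf4* at 615 and 1065 CPM (0.79). *Tnfrsf18* (0.34), *Itgb8* (0.68) and *Cd4* (0.13) had intervals that include 0. The median log2 ratio was 0.68 over the members, with or without *Foxp3*, and 0.04 over all genes, by CPM. Macrophage markers stood at 10898 CPM in the control and 6093 CPM in the treated *Foxp3*-positive cells, led by *Lyz2*, with all 11 of 11 detected. Dendritic markers (5 of 10) stood at 61.5 CPM in the control and 384 CPM in the treated *Foxp3*-positive cells, led by *Ccr7*, with *Flt3*, *Xcr1*, *Clec9a*, *Cd209a* and *Cacnb3* at 0, and the part of these markers was not tested. *Ccr7*, which T cells also make, stood there at 30.8 and 197 CPM. Of the positive cells, 2 control cells and 1 treated cell lay in macrophage-like clusters, and the 2 control cells were the deepest of the 34, with 22084 and 17525 UMIs. In the T-like cluster alone, a comparison chosen after seeing the data, the members' median was 0.24, with *Il2ra* at 1217 and 1635 CPM (0.43, 0.06 to 0.79). Of the 156 treated *Il2ra* UMIs there, 35 were in 1 cell, and the ratio without that cell was not computed. There *Ikzf2* (0.38, −0.01 to 0.78), *Tnfrsf4* (0.41, −0.02 to 0.85), *Icos* (0.24, −0.03 to 0.52), *Tnfrsf18* (−0.10), *Itgb8* (0.24), *Cd4* (−0.25) and *Foxp3* (−0.38, −0.85 to 0.08) had intervals that include 0. The differences between groups in *Foxp3*-positive cells thus rested in large part on 3 cells outside the T-like cluster.

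By CPM, some members were also higher in the treated group among *Foxp3*-negative T cells. Macrophage markers stood at 11020 CPM in the control and 5962 CPM in the treated *Foxp3*-negative cells, and their part was not tested. The ratios of these cells were not computed for the T-like cluster alone or without the highest cells. *Ikzf2* stood at 42.2 CPM in control and 103 CPM in treated cells (log2 ratio 1.28, 0.39 to 2.24), and *Il2ra* at 197 and 387 CPM (0.98). *Icos* had a log2 ratio of 0.87 and *Tnfrsf18* one of 0.83, while *Tnfrsf4* (0.37) and *Cd4* (−0.40) had intervals that include 0. Among all T cells with no *Cd8* UMI the receptors differed little by CPM, *Il2ra* by 0.11, *Icos* by 0.18, *Tnfrsf4* by 0.00 and *Tnfrsf18* by −0.16. *Ikzf2* was higher there (0.38, 0.02 to 0.74), but at 0.14 (−0.24 to 0.52) without the highest treated cell. *Cd4* was lower (−0.44, −0.82 to −0.06), but at −0.15 (−0.55 to 0.25) without the highest control cell. *Il2ra* had 161 UMIs in control and 212 in treated cells of this subset.

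The difference was larger by CPM in *Cd8*-positive T cells, the cytotoxic lineage. *Il2ra* stood at 73.2 CPM (19 UMIs) in the 37 control cells and 449 CPM (97 UMIs) in the 59 treated cells, a log2 ratio of 2.62 (1.90 to 3.41). *Tnfrsf18* stood at 38.5 and 176 CPM (2.19, 1.16 to 3.36), *Tnfrsf4* at 38.5 and 157 CPM (2.03, 0.98 to 3.21), each from 10 control UMIs, and *Icos* at 416 and 1051 CPM (1.34). *Ikzf2*, with 7 control and 10 treated UMIs, had a log2 ratio of 0.78 (−0.76 to 2.41), and *Cd4* had 9 and 0 UMIs. A limit of 20 UMIs over both groups lets scarce genes in more easily where they are high in 1 group, so the members are not counted here. The share of cells with *Il2ra* was 27.0% in the control group (median 3873 UMIs) and 54.2% in the treated group (median 3001 UMIs), and 11.4% and 19.3% after thinning. In the same cells *Cd3d* (1.13), *Cd3g* (1.20) and *Cd8a* (1.46) were also higher in the treated group. Within the T-like cluster *Il2ra* stood at 134 and 469 CPM, 3.50-fold, against 6.13-fold in all *Cd8*-positive T cells. *Tnfrsf18* had a log2 ratio of 1.39 (0.32 to 2.63) from 9 control UMIs and *Icos* one of 0.59, and *Tnfrsf4* stood at 55.2 and 156 CPM from 7 control UMIs. *Ikzf2*, with 5 and 10 UMIs, had a log2 ratio of 0.35 (−1.33 to 2.25). The 29 control cells of that cluster held 126790 of the 259496 UMIs of the 37 control cells, so the other 8 held more UMIs per cell. *Cd3d* and *Cd8a* had ratios of 0.34 and 0.68 there.

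T cells as a whole were next set against macrophages, both groups together. All 8 of 8 members were at least 2 times higher in T cells, where 17.4% of 14623 genes were, with a median log2 ratio of 7.63 against 0.26 over all genes. *Icos* (985 and 1.31 CPM) was 749-fold, *Foxp3* (170 and 0.348 CPM) 489-fold and *Cd4* (254 and 0.529 CPM) 480-fold higher. *Tnfrsf4* was 294-fold and *Tnfrsf18* 133-fold higher. *Itgb8* (70.9-fold), *Ikzf2* (57.5-fold) and *Il2ra* (55.2-fold) stood closer to the macrophage level. The gate used *Cd3* genes and not these, but genes of T cells are higher in T cells by the choice of members, so the sizes and not the count are the description here.

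In macrophages *Il2ra* had 600 UMIs in 276 of 8028 cells, with up to 14 in a cell, and *Foxp3* had 23 UMIs, never more than 1 in a cell. Macrophage *Il2ra* stood at 10.6 CPM (403 UMIs) in the control and 6.98 CPM (197 UMIs) in the treated group, a log2 ratio of −0.60 (−0.86 to −0.36). Within clusters the groups were closer: 15.9 and 14.1 CPM in the *Cxcl9* cluster, 5.77 and 7.16 CPM in the *Areg* cluster, and 19.4 and 16.6 CPM in the *Ifit3* cluster. The cluster led by the cell division gene *Ccna2* (16.8 and 6.94 CPM) was the exception among these. The *Cxcl9* cluster held 1286 control and 398 treated cells, and the *Areg* cluster 746 and 1150, so the make-up of the macrophages moved with the difference, and its part was not tested. None of the 8 members was at least 2 times higher in treated macrophages, where 3.34% of 14493 genes were, or at least 2 times lower, where 1.14% were. *Ikzf2* stood at 5.48 and 4.64 CPM (log2 ratio −0.24, −0.57 to 0.08) and *Tnfrsf4* at 0.896 and 1.42 CPM (0.66, −0.03 to 1.37).

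Dendritic cells, which present antigen to T cells, held a part of the members. By CPM, 5 of 8 were at least 2 times higher than in macrophages, where 9.57% of 14789 genes were, and the median log2 ratio over all genes was −0.03. The members' median was 1.89 over the 6 with a ratio, and 1.27 with *Foxp3* and *Cd4*, at 0 UMIs in dendritic cells, ranked lowest. *Il2ra* stood at 90.3 CPM in dendritic cells and 9.07 CPM in macrophages (log2 ratio 3.32, 3.14 to 3.49), in 24.5% and 3.44% of cells (8.79% and 0.733% after thinning). *Tnfrsf18* stood at 25.7 and 2.04 CPM (3.65, 3.29 to 4.01), in 15.2% and 1.48% of cells (3.64% and 0.177%). *Tnfrsf4* (5.42 and 1.12 CPM, 2.28), *Itgb8* (1.81 and 0.635 CPM, 1.51) and *Ikzf2* (10.4 and 5.12 CPM, 1.03) followed on fewer UMIs, and *Itgb8* or *Ikzf2* fell under the 2-fold limit in part of the alternatives. *Icos* differed by 0.46 (−0.72 to 1.45), and *Foxp3* and *Cd4* had no ratio. Against a floor of 3 UMIs over all dendritic cells, *Foxp3* was at least 282-fold and *Cd4* at least 422-fold higher in T cells, while *Il2ra* was 5.54-fold higher. The 12 T cell markers summed to 16.05 CPM in dendritic cells, with *Cd3e* at 0, and to 15.4 CPM in macrophages.

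Among dendritic cells some members stood at a higher CPM in the cluster led by *Fscn1* and *Ccr7*, markers of mature migratory cells. Its 107 cells held *Il2ra* at 267 CPM (164 UMIs), against 65.4 CPM (286 UMIs) in the other dendritic cells (log2 ratio 2.03, 1.74 to 2.31), and in 47.7% of cells (22.1% after thinning). *Tnfrsf4* stood at 37.4 and 0.915 CPM (5.35, 3.80 to 7.35) and *Tnfrsf18* at 63.4 and 20.4 CPM (1.64). *Itgb8* had 7 UMIs there and 2 elsewhere, and *Ikzf2* stood at 6.51 and 11.0 CPM. Between groups, 4 members had enough UMIs in dendritic cells, of which 0 were at least 2 times higher and 0 lower, where 1.82% and 3.24% of 9716 genes were. *Il2ra* stood at 87.3 CPM in control and 94.5 CPM in treated dendritic cells, a log2 ratio of 0.11 (−0.16 to 0.39). *Tnfrsf18* (0.14), *Tnfrsf4* (0.18) and *Ikzf2* (−0.18) also had intervals that include 0. In the 75 neutrophils each member had 0 to 2 UMIs at a median depth of 1800 UMIs, where a count of 0 allows up to 4% of cells with a UMI and says less about expression.

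Outside the members, the genes most like *Foxp3* were those with the highest ratio of CPM in *Foxp3*-positive to *Foxp3*-negative T cells, over 174 cells and 2216 genes. These genes had at least 20 UMIs in at least 5 *Foxp3*-positive cells, a limit set on the positive cells alone, so genes with few UMIs there could not enter and places on the list are read as an order only. *Nckap5* stood at 160 and 2.68 CPM (log2 ratio 5.90, 3.94 to 8.996), from 37 and 2 UMIs. *Il10* (272 and 12.1 CPM, 4.50), *Lrrc32* (173 and 8.04 CPM, 4.43) and *Izumo1r* (229 and 10.7 CPM, 4.42) were among them. *Klrg1* (3.67), *Ighm* (3.55), *Neb* (3.43), *Frmd5* (3.41) and *Sema4b* (3.39) were also among the 10. Ranked with all these genes, *Itgb8* was at place 7, *Ikzf2* at 8, *Tnfrsf4* at 24, *Tnfrsf18* at 27, *Il2ra* at 28, *Icos* at 44 and *Cd4* at 1893. The study used *Foxp3* and *Il10* as markers of a group of these same cells, so their values are not independent of it.

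Lists of other genes of the pathway were compared in the same way. The lists share genes, so they are not separate observations. *Lrrc32* is in the effector and TGF-beta lists, and *Gzmb* is in the effector and cytotoxic lists. Of the regulatory T cell effector genes, 8 of the 19 with enough UMIs were at least 2 times higher in *Foxp3*-positive T cells and 1, *Irf4*, was lower, with a median log2 ratio of 0.88, where 6.09% of all genes were higher, 9.25% lower and the median was 0.02. *Tigit* stood at 372 CPM in positive and 83.1 CPM in negative cells (2.16) and *Tnfrsf9* at 1149 and 449 CPM (1.36). Of the IL-2 signaling genes 0 of 8 were higher and 1 lower, with a median of 0.20, and *Il2* itself had 1 UMI in positive and 16 in negative cells. Of the genes for TGF-beta activation, 2 of 7 were higher and 0 lower, with a median of 0.44, and *Itgav*, the partner of *Itgb8*, stood at 566 and 241 CPM (1.23). Of the ligands of the receptors, 0 of 3 were higher and 1 lower (median −0.03). Of the conventional CD4 T cell genes, 2 of 8 were higher and 3 lower (median 0.67). Of the cytotoxic genes, 0 of 7 were higher and 6 lower (median −4.77), with *Ifng* at 17.3 and 737 CPM (−5.41), while *Gzmb* was not lower (1391 and 728 CPM, 0.93). Of the 140 negative cells in this comparison, 95 were *Cd8*-positive. Among T cells with no *Cd8* UMI, where 7.51% of genes were higher and 7.1% lower, only 3 cytotoxic genes had enough UMIs, 1 higher and 1 lower (median −0.45). The effector genes had 9 of 19 higher and 3 lower there (median 0.86), IL-2 signaling 1 of 7 higher (0.38) and TGF-beta activation 2 of 6 higher (0.58). Ligands had 0 of 2 either way (0.09) and conventional CD4 genes 3 of 5 higher and 1 lower (1.04). The cytotoxic list holds *Cd8a* and *Cd8b1*, which the choice of these cells removes, so its 2 medians are over different genes and are not compared.

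Between groups in T cells, by CPM, the same lists had medians of 0.50 for the effector genes (1 of 19 higher, 0 lower), 0.18 for IL-2 signaling (0 of 8 either way) and 0.34 for the ligands (0 of 3 either way), where 4.81% of all genes were higher, 6.18% lower and the median was −0.02. TGF-beta activation had a median of 0.58 (1 of 7 higher, 0 lower), conventional CD4 genes −0.25 (1 of 8 higher, 1 lower) and cytotoxic genes 0.86 (2 of 7 higher, 0 lower). *Ctla4* stood at 578 CPM in control and 903 CPM in treated T cells (0.64), and *Il10* at 55.6 and 91.5 CPM (0.72). *Ccr7* stood at 14.4 and 116 CPM (3.01) and *Klf2* at 154 and 50.9 CPM (−1.60). In gated cells of the T-like cluster the medians were 0.13 for the effector genes, −0.01 for IL-2 signaling, 0.48 for the ligands, 0.29 for TGF-beta activation, −0.52 for conventional CD4 genes and 0.57 for cytotoxic genes, where that of all genes was −0.01. Among T cells with no *Cd8* UMI they were −0.04, −0.05, 0.57, 0.17, −0.62 and 0.26, where that of all genes was −0.02. The effector genes' median was thus closer to that of all genes in both subsets. In dendritic cells against macrophages, 2 of 5 ligand genes were at least 2 times higher, where 9.57% of all genes were: *Tnfsf4*, which encodes the OX40 ligand, at 11.8 and 0.363 CPM (5.03) and *Icosl* at 92.3 and 29.4 CPM (1.65). *Il2* had 10 UMIs in dendritic cells (2.01 CPM), against 2.12 CPM in macrophages.

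By position on the mouse genome GRCm38, *Tnfrsf4* (chromosome 4, 156013843 to 156016612) and *Tnfrsf18* (156026164 to 156028895) are neighbors on the same strand with 9551 bases between them. *Icos* (60977927 to 61000320) and *Ikzf2* (69531214 to 69687245) share chromosome 1, and the others lie apart: *Foxp3* on X (7573644 to 7595245), *Il2ra* on 2 (11642807 to 11693193), *Itgb8* on 12 (119158022 to 119238802) and *Cd4* on 6 (124864692 to 124888221). *Tnfrsf4* was found in 76 T cells and *Tnfrsf18* in 86, with both in 59, which is 77.6% and 68.6% of each. *Icos*, on another chromosome, was found in 85.5% and 89.5% of the same cells. Over all T cells *Icos* was found in 76.4%, *Tnfrsf4* in 43.7% and *Tnfrsf18* in 49.4%. The shares thus start from different levels, and a part of position was not tested. *Flicr*, which overlaps *Foxp3* on its strand, had 0 UMIs in T cells, and *Ccdc22*, which overlaps its end on the other strand, had 6.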

How the data were processed

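The authors counted RNA molecules (UMIs) with the BD Rhapsody WTA pipeline on GRCm38 with intronic reads, and the deposited values are these counts and counts of Sample Tag reads. A cell was called to a tag that held 75% of at least 10 tag reads, and was kept with 150 to 5000 genes and a mitochondrial share of 20% or less. The cells with the highest Scrublet scores (scanpy 1.11.5, Python 3.11.15) were removed in the number that cells with both tags predict. Clusters came from Seurat 5.3.0 (R 4.3.3; 2000 variable genes without the 8 members, 30 components, 20 neighbors, resolution 0.5) and were named by marker lists. CPM used UMIs summed per group. Ratios needed 20 UMIs in both sides together, and TMM factors came from edgeR 4.0.16. Intervals are exact Clopper-Pearson, Poisson or conditional binomial (scipy 1.17.1), and the limit for a count of 0 is 3 counts. Named genes are the members, the *Cd3* and *Cd8* genes, 6 gene lists (regulatory T cell effector, IL-2 signaling, ligands, TGF-beta activation, conventional CD4, cytotoxic), and the 10 genes most like *Foxp3* with at least 20 UMIs in at least 5 *Foxp3*-positive T cells, of which 1 is not reported here. Members and lists were chosen with earlier results of these data known. Alternatives changed the tag share, cell limits, doublet removal, T cell gate, cluster resolution, scaling and depth. Protein stainings of the study were not used here.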

Additional observations from a re-analysis of the deposited data

Results flagged for a closer look

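Cells that no comparison used still held *Foxp3*. Among cells outside the gene and mitochondrial limits, 38 treated T cells held 11 *Foxp3* UMIs in 3 cells, above the limit that a count of 0 allows, while 14 control T cells held 0. Among the 1580 cells split between both Sample Tags, 27 were T cells, and 9 of these (33.3%, 16.5% to 54.0%) were *Foxp3*-positive, also above that limit. These cells have no single group and are left out of both.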

How the results depend on the processing

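Of 83 values recomputed under alternatives, 71 stayed within the counting interval or the 1.5-fold limit used for counts, and 12 moved. The share of *Foxp3*-positive T cells in the control group moved to 15.3% with a gate of at least 1 *Cd3* UMI, 12.1% with cells thinned to 1000 UMIs, and 56.3% among T cells with no *Cd8* UMI. In the telmisartan-treated group it moved to 8.82% when thinned and 32.6% with no *Cd8* UMI. The *Foxp3* log2 ratio moved to −0.92 with no scaling, −1.13 for the mean per 10000 of each cell and −0.99 relative to *Cd3* UMIs. The number of members at least 2 times lower in treated T cells became 1 (*Foxp3*) per 10000 of each cell. The number at least 2 times higher became 1 (*Itgb8*) with at most 10% mitochondrial UMIs, without doublet removal, and with the gate of at least 1 *Cd3* UMI. A wider gate and thinning act by their construction. The ratios with no scaling and relative to *Cd3* UMIs moved by a constant shared by all genes. The subset with no *Cd8* UMI leaves out cells of which 0 in the control and 1 in the treated group held *Foxp3*. The causes of the other moves were not tested. The count of members higher in T cells than in macrophages was 8 under each of 13 alternatives, and that for dendritic cells ran from 4 to 5. The ratios relative to *Cd3* UMIs were chosen after seeing the data. So were all ratios without the cell, or the cell of each group, with the most UMIs of a gene. The limit of 2 *Foxp3* UMIs, the subset with no *Cd8* UMI, and the counts without a macrophage-like or the *Cd209a* cluster were too.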

Other observations

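Among the cells removed by Scrublet score, 30 control and 28 treated cells passed the T cell gate, and 7 and 3 of these held *Foxp3*. In the T-like cluster, 27 cells had fewer than 2 *Cd3* UMIs (median 1426 UMIs), and 59.3% of them held *Il2ra*.

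These values rest on 1 pool of mice per group and on 174 T cells, of which 34 were *Foxp3*-positive. Differences between groups cannot be told apart from differences between pools or between tags. The treated cells were shallower and the control T cells carried more macrophage RNA. A cell without a *Foxp3* UMI is not a cell without *Foxp3* RNA, and thinning alone lowered the control share from 26.1% to 12.1%. RNA levels say nothing about protein on the cell surface or about function. Between CPM and the mean per 10000 of each cell, 5 of the 8 genes differed in direction: *Il2ra*, *Ikzf2*, *Tnfrsf4*, *Tnfrsf18* and *Itgb8*.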
